A study of Cavia porcellus with 6 samples.

Results

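Elastic fibres give soft tissues recoil. They consist of a core of cross-linked elastin laid down on a scaffold of microfibrils, which are polymers of fibrillin decorated with smaller glycoproteins. The same microfibrils bind latent TGF-beta binding proteins, and through them hold inactive TGF-beta in the matrix. In the sclera, the tough white coat of the eye, elastic fibres are a minor component beside collagen, and in humans mutations of FBN1, the Marfan syndrome gene, are associated with a long eye and a displaced lens.

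Here 10 genes of this system were chosen by name: Eln, Fbn1, Fbn2, Emilin1, Mfap2, Mfap4, Mfap5, Fbln5, Ltbp1 and Ltbp2. The count table of 32193 guinea pig genes held 9 of them under these symbols, and all 9 passed the filter on low counts, as 16348 genes did in all. Mfap5, a microfibril-associated glycoprotein gene, was not analysed here. RNA sequencing had been done on the posterior pole of the sclera of Cavia porcellus on day 28 of induction. One group is labelled form-deprived (FDM, 3 right eyes), meaning that the eye was kept from seeing a sharp image so that it becomes myopic. The other is the control group labelled NC (3 right eyes). The sources used here do not give strain, age, sex or the way of depriving the eye, and the 6 libraries were taken to come from separate animals. None is labelled as treated with quercetin, which the series title names.

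Total counts ran from 12048216 to 16181865 in FDM and from 10377397 to 17534982 in NC. The libraries numbered 1 stood apart: genes with at least 1 count numbered 12783 in FDM 1 and 14416 in NC 1, while the other 4 libraries had 17689 to 20591. Of all tested genes 42.3% had their lowest level in FDM 1. All 8 markers of scleral fibroblasts and their matrix had counts in every library, with a summed level in FDM of 15349 to 59408 CPM and in NC of 5725 to 53020 CPM (CPM, counts scaled to a common library size, here after TMM correction for library make-up). Other tissues were present too. Summed photoreceptor markers (8 genes) ran in FDM from 199 to 10613 CPM and in NC from 404 to 23238 CPM, and skeletal muscle markers (7 of 8 in the table) in FDM from 8953 to 48764 CPM and in NC from 74.2 to 20301 CPM. In FDM 1 the photoreceptor genes Pde6a, Pde6b and Rom1 and the pigment genes Tyr, Tyrp1, Dct, Pmel and Mlana had no count. In tissue of this kind, fewer cells of a type and less RNA per cell cannot be told apart.

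No elastic fibre or microfibril gene passed the test between FDM and NC. By edgeR's quasi-likelihood test 0 of the 9 genes reached an adjusted p below 0.05, and 0 an unadjusted p below 0.05. Over all 16348 genes tested these shares were 0% and 0.954% (156 genes). DESeq2 called 11 genes of the whole table and limma-voom 0, neither of them calling any of the 9. FDM and NC libraries overlapped for each of the 9 genes, whereas of all tested genes 2.73% had every FDM library above every NC library and 2.81% had the reverse, together 5.55%. The log2 fold changes of FDM over NC ran from -0.23 to 1.45, 6 positive and 3 negative, with a median of 0.22, against a median of 0.02 and 51.2% positive over all tested genes. Scaling by total count alone, which brought the median of all genes to -0.23, left 4 of the 9 positive. Leaving out FDM 3 gave a median of -0.48 for the 9 genes, and leaving out NC 2 gave -0.17.

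Each gene had between 227 and 10753 counts in each library, a counting error of at most 6.64% of a value. The highest and lowest libraries of a gene differed from 2.47-fold for Fbn2 to 25.2-fold for Fbn1. The plot of CPM by library shows how far the groups overlap.

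**Figure D1:**
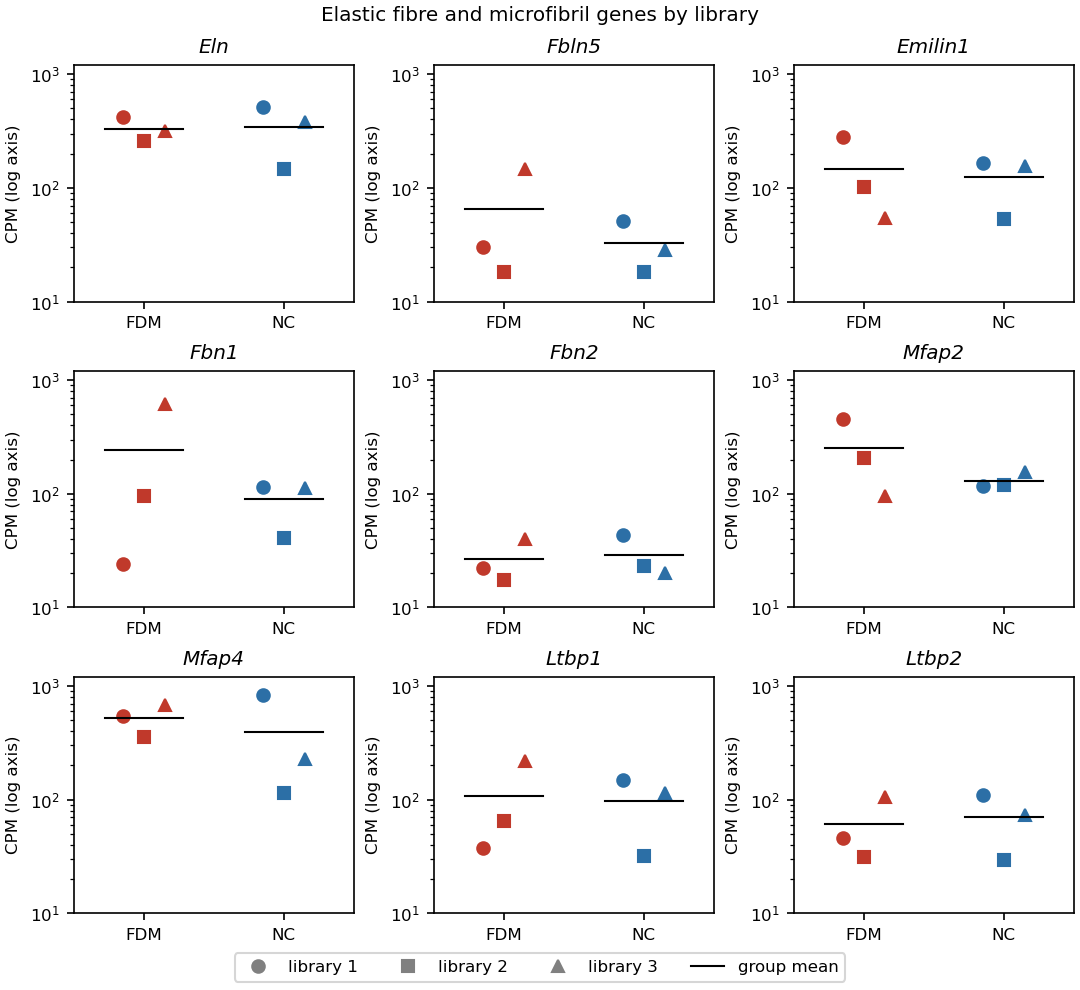
CPM (log axis) of the 9 genes in each library, FDM on the left and NC on the right of each panel, with symbols for the library number and a line at the group mean (n = 3 each). The groups overlap in every panel, and the widest spread is that of Fbn1 in FDM, between 24.3 and 612 CPM.

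Elastin itself did not separate the groups. Eln, which encodes the elastin monomer, had 417, 257 and 317 CPM in FDM 1, 2 and 3, against 512, 146 and 381 CPM in NC 1, 2 and 3. Both the highest and the lowest level were those of NC libraries, with all FDM libraries between them. The means were 330.2 ± 81.1 CPM in FDM and 346.2 ± 185 CPM in NC (SD, n = 3 each), a log2 fold change of -0.07 ± 0.55 (SE, edgeR adjusted p = 0.999999). The sign of this value turned with several settings, for example to 0.32 without NC 1 and 0.081 without FDM 2.

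Fbln5 encodes fibulin-5, which links elastin to microfibrils and to cell-surface integrins and is required for elastic fibre assembly in mice. It had 30.3, 18.1 and 145.9 CPM in FDM 1, 2 and 3, against 51.7, 18.3 and 28.5 CPM in NC 1, 2 and 3. One FDM library, FDM 3, stood above all others, while the other two lay within or just under the NC range. The log2 fold change was 0.98 ± 0.78 (SE, edgeR adjusted p = 0.999999), and without FDM 3 it was -0.48.

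Emilin1 encodes a glycoprotein found where elastin meets the microfibrils, which in mice also restrains the maturation of TGF-beta. Its levels were 278.8, 102 and 54.7 CPM in FDM 1, 2 and 3, against 164.4, 53.1 and 157 CPM in NC 1, 2 and 3. FDM 1 was the highest library, and FDM 3 was nearly as low as NC 2, the lowest. The log2 fold change of 0.22 ± 0.66 (SE, edgeR adjusted p = 0.999999) was -0.67 without FDM 1, -0.17 without NC 2 and -0.055 with total-count scaling.

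Fbn1 had the largest fold change of the 9 genes in edgeR with all 6 libraries, and without FDM 3 its sign turned. It encodes fibrillin-1, the main backbone protein of microfibrils after birth. The gene had 24.3, 95.6 and 612 CPM in FDM 1, 2 and 3, against 113.7, 41.2 and 113.4 CPM in NC 1, 2 and 3. The FDM group thus held both the lowest and the highest level, and FDM 2 lay inside the NC range. The means were 243.8 ± 320.5 CPM in FDM and 89.4 ± 41.8 CPM in NC (SD, n = 3 each), a log2 fold change of 1.45 ± 1.04 (SE, edgeR adjusted p = 0.999999). Without FDM 3 the value was -0.63 and without FDM 1 it was 1.99, with an unadjusted p of 0.0319 in edgeR that did not survive adjustment (0.99998). It was 0.50 in limma-voom, 0.67 with sample weights and 0.63 with the replicate number as a block, where Mfap4 had the largest value (0.81, 0.98 and 0.89).

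The second fibrillin gene did not share this spread. Fbn2, whose product predominates in developing tissues, had 22.4, 17.5 and 40.0 CPM in FDM 1, 2 and 3, against 43.1, 23.3 and 20.2 CPM in NC 1, 2 and 3. FDM 3 and NC 1 were high to a similar degree and the other 4 libraries low. Its mean was 26.6 ± 11.9 CPM in FDM and 28.9 ± 12.5 CPM in NC (SD, n = 3 each), with a log2 fold change of -0.12 ± 0.56 (SE, edgeR adjusted p = 0.999999). The sign turned to 0.11 without FDM 2 and 0.29 without NC 1.

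Mfap2 had the smallest p of the 9 genes in edgeR with all 6 libraries, though not in DESeq2, in limma-voom with sample weights or with the replicate block. It encodes MAGP-1, a small glycoprotein bound along fibrillin microfibrils. Levels were 458.4, 206 and 95.6 CPM in FDM 1, 2 and 3, against 116.7, 118.5 and 154.5 CPM in NC 1, 2 and 3. FDM 1 and FDM 2 lay above the whole NC group, which was tight, and FDM 3 lay below it. The means were 253.3 ± 186 CPM in FDM and 129.9 ± 21.3 CPM in NC (SD, n = 3 each), and the log2 fold change was 0.96 ± 0.57 (SE, edgeR unadjusted p = 0.124, adjusted p = 0.999999). With FDM 3 left out it was 1.29 (edgeR unadjusted p = 0.0223, adjusted p = 0.99983), and with FDM 1 left out 0.21. Of the 9 genes it alone kept its sign under all 17 alternatives tried, but it was 0.050 without both libraries numbered 1.

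Mfap4 encodes a fibrinogen-related glycoprotein that binds elastin and fibrillin. It had 545, 352.8 and 674.7 CPM in FDM 1, 2 and 3, against 840.4, 113.7 and 230.0 CPM in NC 1, 2 and 3. NC 1 was the highest library, while the other two NC libraries lay below all of FDM. The log2 fold change was 0.41 ± 0.73 (SE, edgeR adjusted p = 0.999999). It was 1.60 without NC 1 (edgeR unadjusted p = 0.0277, adjusted p = 0.999972) and -0.046 without NC 2.

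Ltbp1 encodes a protein that ties latent TGF-beta to the matrix. The gene had 37.7, 65.0 and 219 CPM in FDM 1, 2 and 3, against 148.5, 32.2 and 114.1 CPM in NC 1, 2 and 3. As with Fbn1, FDM 3 was the highest library and FDM 1 the lower end of its group. Its log2 fold change of 0.13 ± 0.75 (SE, edgeR adjusted p = 0.999999) was -0.98 without FDM 3, -0.32 without NC 2 and -0.0089 with total-count scaling.

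Ltbp2 encodes a family member that binds fibrillin-1 but not latent TGF-beta, and in humans its loss causes congenital glaucoma. Levels stood at 46.4, 31.0 and 104.7 CPM in FDM 1, 2 and 3, against 109.5, 29.8 and 74.0 CPM in NC 1, 2 and 3. High and low libraries were found in both groups. The log2 fold change was -0.23 ± 0.60 (SE, edgeR adjusted p = 0.999999), 0.088 without FDM 2, 0.22 without NC 1 and -0.91 without FDM 3.

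**Figure D2:**
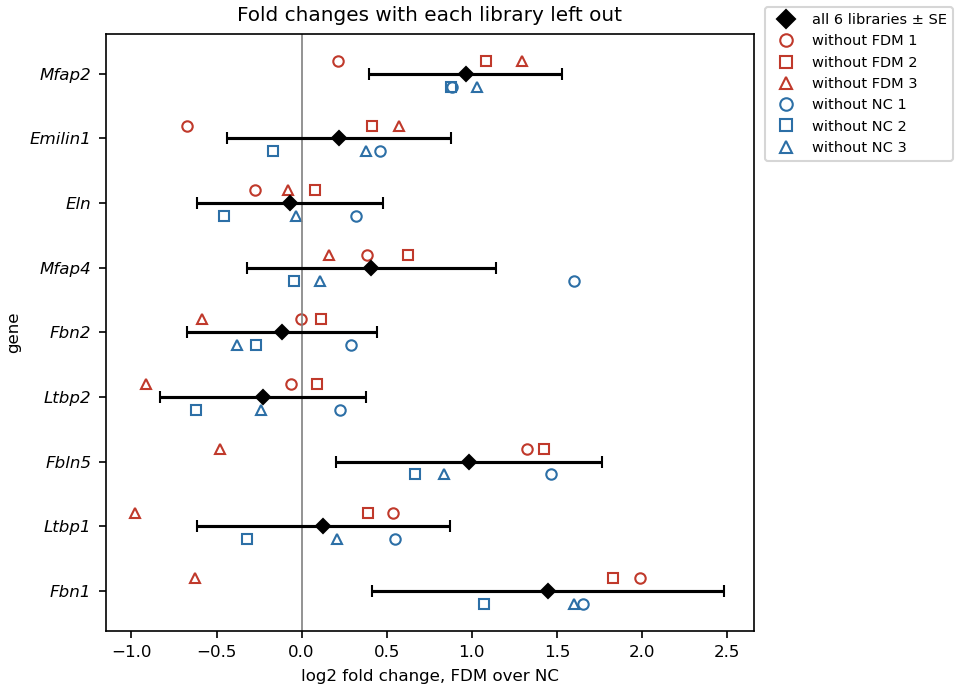
Log2 fold change of FDM over NC for each gene with all 6 libraries (black, ± SE) and with each FDM (red) or NC (blue) library left out. Without FDM 3 the values of Fbn1, Fbln5 and Ltbp1 are -0.63, -0.48 and -0.98, on the other side of 0 from their values with all libraries.

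The 9 genes varied with the library more than with the group, in 2 different ways. In NC 2 all 9 lay under their own mean over the 6 libraries, with an average of -1.003 log2 CPM, and 5 of the 9 had their lowest level there, as 11.4% of all tested genes did. In FDM 3 the average was 0.74 above, with 7 of the 9 genes above their mean, and in NC 1 it was 0.58 above, with 8 of the 9. NC 2 was also the library with the lowest summed fibroblast and matrix markers, 5725 CPM, and the highest photoreceptor markers, 23238 CPM. The photoreceptor sums were next highest in FDM 3 (10613 CPM) and NC 1 (7095 CPM), where the 9 genes averaged above their means. They were 199 and 1375 CPM in FDM 1 and 2 and 404 CPM in NC 3. The summed fibroblast and matrix markers were 33939, 15349 and 59408 CPM in FDM 1, 2 and 3, against 53020, 5725 and 14980 CPM in NC 1, 2 and 3. Col1a1, Col1a2, Col3a1, Lum, Dcn and Pcolce were each lowest in NC 2, but Pdgfra was lowest in FDM 1 and Thy1 in FDM 2. The part of all these markers in the levels of the 9 genes was not tested.

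The second way divided the genes within FDM. In FDM 3, Fbn1, Fbln5 and Ltbp1 lay 2.68, 2.02 and 1.43 log2 CPM above their own means, while Emilin1 and Mfap2 lay below theirs (-1.05 and -0.78). FDM 1 showed the opposite order, with Mfap2 and Emilin1 at 1.48 and 1.30 and Fbn1 and Ltbp1 at -1.97 and -1.11. The 8 summed smooth muscle and pericyte markers stood at 7277, 5385 and 1978 CPM in FDM 1, 2 and 3, against 6897, 1662 and 6027 CPM in NC 1, 2 and 3. The 8 endothelial markers summed to 3868, 2097 and 795 CPM in FDM 1, 2 and 3, against 1832, 697 and 1768 CPM in NC 1, 2 and 3. Both sums were highest in FDM 1 and, within FDM, lowest in FDM 3, as Mfap2 and Emilin1 were, but single markers differed. Des gave 3636 CPM of the smooth muscle sum in FDM 1, and no other marker of that list was highest there. Like the summed skeletal muscle markers (74.2 CPM), Des was lowest in NC 1 (326 CPM). Acta2, Myh11, Tagln and Cnn1 were highest in NC 1, and Rgs5, Mcam and Notch3 in NC 3. Vwf, Egfl7 and Tie1 were highest in FDM 1, where Vwf and Egfl7 gave 1702 and 1339 CPM. Pecam1, Cdh5 and Kdr were highest in NC 3, Cldn5 in NC 1 and Tek in FDM 3. Kdr and Tek had no count in FDM 1. The part of these markers in this division was not tested. Eln lay between Mfap2 and Fbn1, at 0.41 in FDM 1 and 0.012 in FDM 3. Among the 36 pairs of genes, the smallest Euclidean distance between centred profiles over the 6 libraries was that of Fbn2 and Ltbp2 (1.17) and the largest that of Fbn1 and Mfap2 (5.02).

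**Figure D3:**
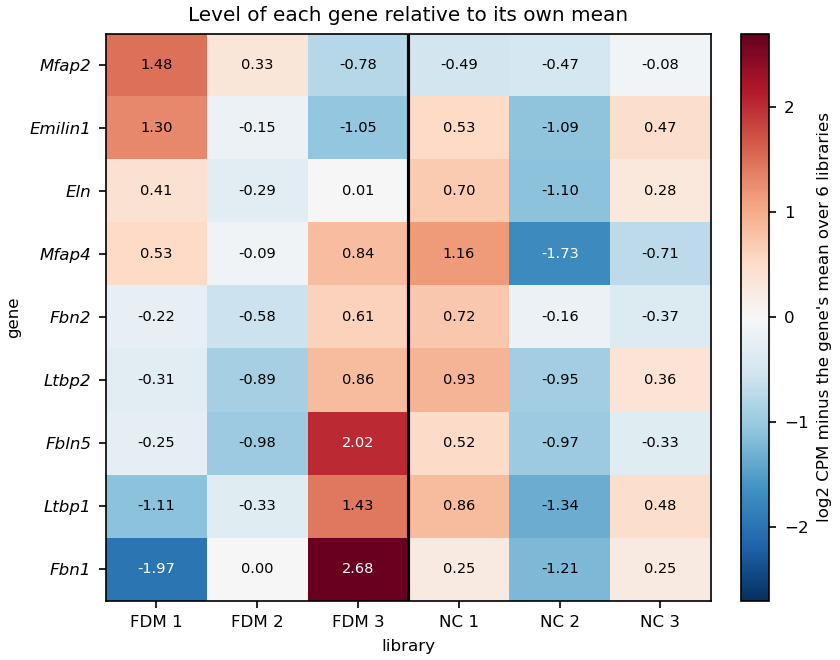
Log2 CPM of each gene minus its mean over the 6 libraries, FDM left of the line and NC right of it. Red cells of Fbn1, Fbln5 and Ltbp1 in FDM 3 stand against blue cells of Mfap2 and Emilin1 in the same library, and the column of NC 2 is blue throughout.

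The same division appears when the counts of the 9 genes are written as shares of their sum, which needs no scaling between libraries. These are the same counts in another form, not separate evidence. Together the 9 genes took 0.157%, 0.106% and 0.223% of all counts in FDM 1, 2 and 3, against 0.207%, 0.0690% and 0.139% in NC 1, 2 and 3. Fbn1 made up 1.30%, 8.35% and 27.0% of these counts in FDM 1, 2 and 3, against 5.41%, 7.15% and 8.91% in NC 1, 2 and 3. Mfap2 ran the other way in FDM, at 24.6%, 18.0% and 4.22%, beside 5.56%, 20.6% and 12.1% in NC. Eln kept a share of 22.4%, 22.4% and 14.0% in the FDM libraries, against 24.4%, 25.4% and 29.9% in the NC libraries. Ltbp2 took 2.50%, 2.71% and 4.62% in the FDM libraries, against 5.21%, 5.16% and 5.81% in the NC libraries. For these 2 of the 9 genes all FDM shares lay below all NC shares, which was noticed after the values were seen and not tested. In CPM the groups overlapped for both genes. By CPM, 2.81% of all tested genes had every FDM library below every NC library. That is another measure than these shares and gives no background for them. As parts of a common total the shares depend on each other, so a larger Fbn1 share makes the others smaller. These shares are of counts, not of molecules, as longer transcripts give more reads and no transcript lengths were used here.

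**Figure D4:**
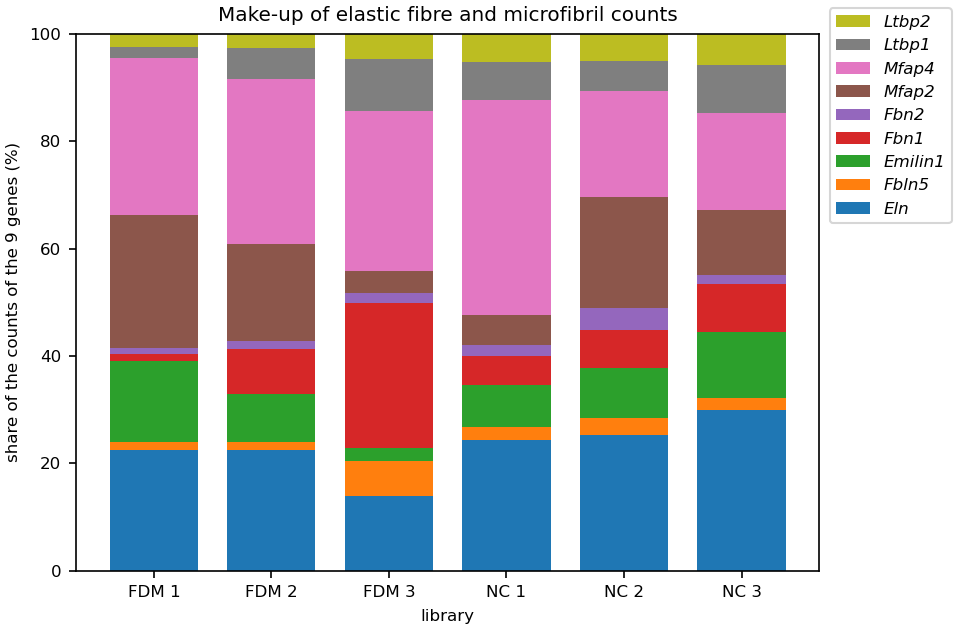
Share of each gene (%) in the summed counts of the 9 genes, by library, FDM left and NC right. In FDM 3 the Fbn1 share (red) is 27.0% and the Mfap2 share (brown) 4.22%.

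Ratios between genes within a library carry no scaling either, and 4 were compared. The ratio of Eln to Fbn1 counts was 17.2, 2.68 and 0.518 in FDM 1, 2 and 3, against 4.50, 3.55 and 3.36 in NC 1, 2 and 3. The NC libraries lay close together and the FDM libraries on both sides of them. As log2 values the means were 1.53 ± 2.53 in FDM and 1.91 ± 0.22 in NC (SD, n = 3 each), a difference of -0.39 (exact permutation test, two-sided, p = 0.7, adjusted over the 4 ratios 0.7). The ratio of Fbn2 to Fbn1 differed by -0.60 and that of Ltbp2 to Ltbp1 by -0.22 on the log2 scale (exact permutation test, p = 0.7 and 0.6, both 0.7 after adjustment).

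Set against type I collagen, Eln also overlapped between the groups. The log2 ratio of Eln to Col1a2, a gene of the main scleral collagen, was -4.12, -3.78 and -5.55 in FDM 1, 2 and 3, against -4.68, -3.22 and -3.45 in NC 1, 2 and 3. Relative to this collagen gene, elastin counts were lowest in FDM 3 and highest in NC 2. The difference of the means was -0.70 (exact permutation test, p = 0.5, adjusted 0.7). With 3 libraries against 3 such a test cannot give a two-sided p under 0.1.

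**Figure D5:**
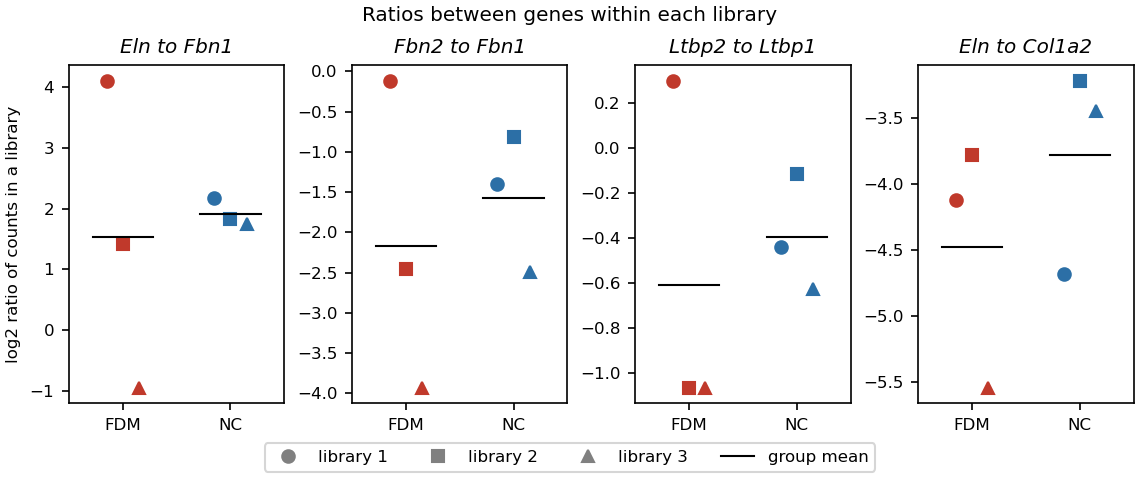
Log2 ratio of the counts of 2 genes within each library, FDM left and NC right in each panel, with a line at the group mean (n = 3 each) and a separate axis per panel. Eln to Fbn1 spans -0.95 to 4.10 in FDM and 1.75 to 2.17 in NC.

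Relatives of these genes in the same families had mostly positive values. Of 12 further fibulin, fibrillin, EMILIN, multimerin and latent TGF-beta binding genes, 11 were tested and 0 passed edgeR's test. There were 9 positive and 2 negative, with a median log2 fold change of 0.50, beside 0.02 for all genes. That median was 0.24 without NC 2, 0.91 without NC 1 and 0.24 with total-count scaling. Fbn3, positive at 0.33, and Emilin3, negative at -0.76, had few counts, from 0 to 48 and from 0 to 113 in a library. Efemp1, which encodes fibulin-3, averaged 82.9 ± 94.7 CPM in FDM and 39.3 ± 16.1 CPM in NC (SD, n = 3 each). Its libraries held 19.9, 37.0 and 191.8 CPM in FDM, against 48.0, 20.7 and 49.1 CPM in NC, so that FDM 3 again stood above all others. The log2 fold change was 1.08 ± 0.81 (SE), and -0.52 without FDM 3. Emilin2 had 0.90 ± 0.58, Fbln2 0.69 ± 0.57 and Fbln1, which encodes an elastin-associated fibulin, 0.87 ± 0.74 (log2 fold change ± SE). Of these, Fbln2 had 0.095 and Emilin2 0.40 without FDM 3.

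Among genes that assemble and cross-link elastic fibres, the groups did not overlap for Tnxb and Lox. Of 17 listed genes 16 were tested and 0 passed edgeR's test, 13 were positive and 3 negative, and the median was 0.46 (0.14 without NC 2, 0.19 without FDM 3 and 0.23 with total-count scaling). In 2 of the 16 the lowest FDM library was above the highest NC library, as in 2.73% of all tested genes. Tnxb, which encodes tenascin-X, a matrix glycoprotein that binds collagen fibrils and whose loss in humans causes a form of Ehlers-Danlos syndrome, had 250.9, 313.5 and 598.2 CPM in FDM 1, 2 and 3, against 113.6, 83.9 and 208.9 CPM in NC 1, 2 and 3. This was the only one of the 16 with an unadjusted p below 0.05 (0.954% over all tested genes), at a log2 fold change of 1.52 ± 0.54 (SE, edgeR unadjusted p = 0.0204, adjusted p = 0.999999), and 1.001 to 1.90 with any single library left out. The unadjusted p of edgeR was 0.0639 without FDM 3, 0.0636 without NC 1 and 0.075 without NC 2.

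Lox encodes lysyl oxidase, which cross-links both elastin and collagen. It had 19.6, 26.6 and 26.2 CPM in FDM 1, 2 and 3, against 12.1, 9.31 and 19.4 CPM in NC 1, 2 and 3. The FDM libraries lay above the NC libraries by a narrow margin, that between FDM 1 and NC 3. Its log2 fold change was 0.82 ± 0.60 (SE, edgeR unadjusted p = 0.2, adjusted p = 0.999999). Fn1, for fibronectin, on which fibrillin assembly depends in cultured cells, had 1.30 ± 0.69 (0.35 without FDM 3), and Vcan, for the proteoglycan versican, 0.63 ± 0.49 (0.26 without NC 2).

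The TGF-beta genes showed no common direction. All 15 listed genes for ligands, receptors and activators were tested, 0 passed edgeR's test, 8 were positive and 7 negative, and the median log2 fold change was 0.12 (-0.11 without NC 2, -0.011 without FDM 3, 0.0068 without NC 1 and -0.19 with total-count scaling). Bmp1, whose protease processes procollagen and helps release latent TGF-beta by cleaving LTBP1, had 180.8, 187 and 243.1 CPM in FDM 1, 2 and 3, against 138, 103.9 and 161 CPM in NC 1, 2 and 3. It was the 1 gene of the 15 with all FDM above all NC libraries (2.73% over all tested genes), at 0.60 ± 0.39 (log2 fold change ± SE, edgeR unadjusted p = 0.158, adjusted p = 0.999999). The co-receptor gene Tgfbr3 had 1.12 ± 0.60 (0.21 without FDM 3). The ligand gene Tgfb1 had 0.56 ± 0.48, and 0.28 without NC 2. Tgfb3 had 185.3, 97.2 and 232.4 CPM in FDM against 749.4, 56.5 and 259.1 CPM in NC, and the log2 fold change of -1.05 ± 0.81 (SE) was 0.11 without NC 1.

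Among proteases that can degrade elastin and their inhibitors, 14 genes were listed. Ctsl, Elane and Serpina1 were absent under these symbols, and Mmp12 did not pass the filter on low counts. The other 10 were tested. None passed edgeR's test (0 of 10), 9 were positive and 1 negative, and the median was 0.30 (0.0034 without NC 2, 0.016 without FDM 3, 0.60 without NC 1 and 0.11 with total-count scaling). The negative one, the gelatinase gene Mmp9, had 9.76, 1.73 and 2.20 CPM in FDM 1, 2 and 3, against 27.6, 15.1 and 4.22 CPM in NC 1, 2 and 3, and its log2 fold change was -1.78 ± 1.13 (SE). The groups overlapped through FDM 1 and NC 3. Mmp2, for the other gelatinase, had 0.57 ± 0.75 (0.15 without NC 2), and the inhibitor gene Timp2 had 0.76 ± 0.62 (0.14 without FDM 3). Timp1 followed Mfap2 in its order within FDM, with 3683, 946 and 176.3 CPM in FDM 1, 2 and 3, against 1214, 309.1 and 645.7 CPM in NC, and its log2 fold change of 1.15 ± 1.01 (SE) was -0.37 without FDM 1.

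The genes whose levels ran most like those of Eln and Fbn1 were looked for among 7823 tested genes with a symbol and a mean of at least 4 log2 CPM. Likeness was the Euclidean distance between centred log2 CPM profiles over the 6 libraries. Nearest to Eln were Aspg, Myo1c and CUNH1orf115, at distances of 0.32, 0.36 and 0.40, where the median gene was at 1.89. Nearest to Fbn1 were Scara5, Boc and Efemp1, at 0.549, 0.998 and 1.05, where the median was 3.76. Scara5 had 5.82, 18.7 and 154.6 CPM in FDM 1, 2 and 3, against 22.9, 11.9 and 32.8 CPM in NC 1, 2 and 3. As Scara5 was picked for its nearness to Fbn1, their shared order of FDM libraries is no separate result. These distances describe 6 libraries, with FDM 1 and NC 1, which stood apart, among them.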

How the data were processed

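The authors deposited a single table of whole-number read counts by gene, with 1 column for each library and no normalisation. The submitters' processing notes name Trimmomatic, STAR and HTSeq as the authors' tools. Versions, build, annotation and strand setting are not stated there or in the labels. Whether reads of overlapping genes were told apart is therefore not known. No coordinates or sequences are printed. All 9 symbols matched the RefSeq table of mCavPor4.1, used for names only. Genes were matched by symbol, lists without regard to case.

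Groups were compared in edgeR 4.0.16 under R 4.3.3 (filterByExpr, TMM, robust quasi-likelihood test, group as the only term, Benjamini-Hochberg adjustment over 16348 genes, called below 0.05). The procedure was also run on simulated counts, whose outcome is not given here. Limma 3.58.1 and DESeq2 1.42.0 served as alternatives. The SE is the absolute log2 fold change over the root of F. Log2 CPM uses a prior count of 2, and ratios use counts plus 0.5. P-values set a difference between the groups against the variation between these libraries. Same-numbered libraries were checked for pairing (r of deviations 0.10, 0.03 and -0.15), and numbers were not treated as pairs. Genes and lists were chosen with earlier results of these data known. Besides the 9 genes, the 4 of smallest p per pathway list and the 3 nearest in pattern to Eln and Fbn1 are named. Of 8 marker lists, those of smooth muscle, endothelium, cartilage, pigment cells and glia had median log2 fold changes of -0.75, 0.52, -0.66, 0.08 and -0.18, fibroblasts 0.47, photoreceptors -1.48 and muscle 1.67, with 0 genes called.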

Additional observations from a re-analysis of the deposited data

How the results depend on the processing

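In edgeR the count of called genes was 0 under each scaling, filter, threshold and library left out, and in limma-voom, run only on the filtered genes of all 6 libraries with and without sample weights, it was also 0. It was 11 in DESeq2, which gave no adjusted p to 10474 genes, Fbn2 among them. Genes at an unadjusted p below 0.05 (156) numbered 367 without a filter, 281 in DESeq2, 450 in limma-voom with sample weights, 226 without both libraries numbered 1, 120 with the replicate number as a block, and 84 to 536 with a library left out. The median of the 9 genes ran from -0.48 to 0.55 with a library left out, and was 0.10 with the replicate block.

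Eln (-0.07) turned positive in limma-voom (0.073), with sample weights (0.10), with the replicate block (0.080) and without both libraries numbered 1 (0.061). In that last setting Fbn2 (0.32), Ltbp2 (0.34), Emilin1 (-0.49) and Tgfb3 (0.022) also changed sign, and Mfap2 was 0.050. With total-count scaling Emilin1 (-0.055) and Ltbp1 (-0.0089) did. With a library left out the log2 fold changes ran from -0.46 to 0.32 for Eln, -0.63 to 1.99 for Fbn1, -0.59 to 0.29 for Fbn2, -0.67 to 0.57 for Emilin1, 0.21 to 1.29 for Mfap2, -0.046 to 1.60 for Mfap4, -0.48 to 1.47 for Fbln5, -0.98 to 0.55 for Ltbp1 and -0.91 to 0.22 for Ltbp2. The same ranges were -0.37 to 1.74 for Timp1, -0.52 to 1.54 for Efemp1 and -1.57 to 0.11 for Tgfb3. Log2 ratios ran from -1.68 to 0.85 for Eln to Fbn1, -1.62 to 0.29 for Fbn2 to Fbn1, -0.67 to 0.010 for Ltbp2 to Ltbp1 and -1.15 to -0.17 for Eln to Col1a2. The cause of these changes was not tested. With the replicate block the ratios had exact p of 0.75, 0.5, 0.75 and 0.75, where 0.25 is the smallest possible. Each of the 9 genes had at least 227 counts in each library, and the design of 3 libraries a group limits the precision.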
